A study of Mus musculus with 12 samples.

Results

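The genes Mybpc1, Mb, Trib2, Cystm1, Snai3, Cend1, Fam189a2, Trim47 and Lrig1 are 9 of the 26190 genes of the expression table, and were chosen by name for higher values in the ventricles than in the atria of the embryonic heart. That embryonic difference is therefore described here and not tested. For 6 of them (Mb, Snai3, Cend1, Fam189a2, Trim47 and Lrig1) the study also displayed the values in heart organoids, so the direction between the organoid parts is not independent evidence for these 6 genes. It further plotted a longer list of genes that differ between the embryonic chambers, with heart organoids beside them. Whether Mybpc1, Trib2 and Cystm1 are in that list is not given here. The data were 12 RNA-seq libraries, 3 from each of 4 groups. Atria and ventricles were dissected from C57BL/6 mouse embryos at E11.5 (E11.5H). The other 2 groups were atrium-like and ventricle-like parts, cut from heart organoids (HOs) at day 13 of culture, and the labels give C57BL/6 as their strain. HOs are beating structures grown from wild-type mouse embryonic stem cells, which first form embryoid bodies and then develop on a gel of laminin and entactin with FGF4, a fibroblast growth factor, with BMP4, the Wnt activator BIO and LIF added in the last days. The methods describe cell lines from C57BL/6 and from its cross with JF1, and which line gave these HOs and whether pieces were pooled are not given in the sources used here. No group carried a transgene or a deletion according to the labels. Each piece was cut out whole, so a library holds every cell type of that piece.

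In the heart the compact ventricular wall pumps against the higher pressure, and its cardiomyocytes build dense sarcomeres with a matching oxygen supply, while atrial cardiomyocytes keep a partly different set of contractile and secretory genes. The 9 genes come from several of these systems and beyond. Mybpc1 encodes the slow-type myosin-binding protein C, a protein of the thick filament best known from skeletal muscle, and Mb encodes myoglobin, the oxygen-binding heme protein of striated muscle. Trib2 is a pseudokinase of the tribbles family that hands substrates to a ubiquitin ligase, Trim47 is a ubiquitin ligase of the tripartite motif family, Fam189a2 is a membrane adaptor that binds the ubiquitin ligase Itch and acts on the receptor Cxcr4, and Lrig1 is a membrane protein that restrains growth factor receptors of the ErbB family, Met and Ret. Snai3 is a zinc-finger repressor of the snail family, whose members bind E-boxes, Cend1 is known from neurons leaving the cell cycle, and Cystm1 encodes a small cysteine-rich membrane protein.

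On GRCm38 all of the genes but Cystm1 lie on the minus strand. Mybpc1 spans chr10:88518279-88605152, Mb chr15:77015487-77050668, Trib2 chr12:15791727-15816785 and Snai3 chr8:122454205-122460689. Cend1 spans chr7:141426446-141429562, Fam189a2 chr19:23972750-24031019, Trim47 chr11:116105750-116110235 and Lrig1 chr6:94604529-94700145. Exons of the antisense gene Gm49540 cover 27.6% of the exonic bases of Mb, and the use of strand in counting is not given in the sources used here, so fragments from the shared bases cannot be told apart. Opposite-strand exons cover 5.57% of the exonic bases of Mybpc1 and 2.58% of those of Lrig1.

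RefSeq promoter windows of GRCm38.p6 were found for 7 of the 9 genes and not for Cystm1 and Snai3. Those of Mybpc1 and Mb, the muscle genes, and of Trib2 are shown because these genes took different courses in the HO libraries. Each run is the 250 bases before the transcription start, on the minus strand, and capitals mark an E-box (CANNTG on either strand), the kind of element that snail and other factors bind.
Mybpc1 (chr10:88605153-88605402): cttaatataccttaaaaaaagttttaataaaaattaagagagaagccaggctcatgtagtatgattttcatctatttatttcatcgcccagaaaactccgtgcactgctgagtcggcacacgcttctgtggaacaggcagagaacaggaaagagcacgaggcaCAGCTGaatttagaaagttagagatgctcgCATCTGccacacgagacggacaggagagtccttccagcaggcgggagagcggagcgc
Mb, start inside the gene (chr15:77022788-77023037): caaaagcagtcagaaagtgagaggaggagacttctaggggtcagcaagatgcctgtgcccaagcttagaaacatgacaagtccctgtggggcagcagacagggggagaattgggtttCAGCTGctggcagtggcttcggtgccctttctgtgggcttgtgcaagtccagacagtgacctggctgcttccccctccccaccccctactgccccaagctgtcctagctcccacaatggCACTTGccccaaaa
Trib2 (chr12:15816786-15817035): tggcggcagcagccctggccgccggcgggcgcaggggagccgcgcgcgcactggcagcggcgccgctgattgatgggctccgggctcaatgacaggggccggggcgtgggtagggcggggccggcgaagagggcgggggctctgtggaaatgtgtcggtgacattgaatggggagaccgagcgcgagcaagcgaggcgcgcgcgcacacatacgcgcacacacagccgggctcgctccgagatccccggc
The Mybpc1 window held 2 E-boxes at a GC content of 46.4%, the Mb window shown held 2 at 57.2%, and the Trib2 window held 0 at 73.6%, against a median GC content of 52.4% over 32851 promoter windows. Mb had other windows that are not shown. The one before its outer start (chr15:77050669-77050918) held 2 E-boxes at 54.4%, and one overlapping that shown (chr15:77022728-77022977) held 3 at 58.4%. Fam189a2 had 3 E-boxes, while Cend1, Trim47 and Lrig1 had 0. An E-box was present in 66.2% of all windows, so its presence is common. MEF2 and CArG elements were searched as exact patterns that allow only A or T at the inner positions. Such matches, found in 0.508% and 1.47% of all windows, were in none of the windows of the 7 genes. Near matches were not counted, so the windows may hold weaker A/T-rich elements. These matches describe letters in the window and were not tied to the expression values.

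Expression is given as the deposited FPKM, which divides the fragments of a gene by its transcript length and by the depth of the library, so that levels can be compared between genes. Where groups are said not to overlap in FPKM, the share of all genes that separate in this way was not computed. Such separations are therefore not read as particular to a gene. The libraries held 23971258 to 30540993 assigned fragments, so that 3 fragments stand for 0.0982 to 0.125 CPM (counts scaled to a common library size). Markers of cardiomyocytes checked the tissue labels. The summed FPKM of 18 pan-cardiomyocyte genes lay between 16968 and 19530 for E11.5H and between 361 and 5074 for HOs, and that of 10 ventricular genes ran from 8381 to 8475 in ventricles, 648 to 963 in atria, 203 to 796 in ventricle-like and 47.7 to 179 in atrium-like parts. No gene of either list was at 0 throughout a group. HO libraries also held other tissues in unequal amounts. Summed FPKM of 12 hepatocyte and visceral endoderm genes lay between 13.8 and 17.5 for E11.5H and between 110 and 14010 for HOs, and that of 12 gut epithelium genes was 73.4 to 101 against 632 to 4216. That of 12 neural genes was 18.4 to 34.8 against 1.64 to 553, and that of 16 skeletal muscle genes was 49.99 to 79.6 against 5.09 to 158. In ventricles of E11.5H the skeletal muscle genes Myod1, Myf5, Myf6, Pax7, Tnnc2 and Cacng1, the gut genes Foxa2 and Cdx2 and the liver genes Apoc2 and Serpina1a were at 0, and no gene of these 4 lists was at 0 in all HO libraries. In these bulk samples fewer cells of a type and less RNA per cell cannot be told apart.

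Mybpc1 was detected in ventricles and not in atria of E11.5H. Its counts were 0, 0 and 0 in atria, and it stood at 3.93, 4.46 and 1.08 FPKM in ventricles. With 3 counts per library set as the limit for the atria, the mean of the ventricles was at least 142-fold higher. Ventricle replicate 3 was the lowest for Mybpc1 and had the highest summed FPKM of 10 erythroid genes, 73412 against 11668 and 19222, and the part of this in the value was not tested. In HOs Mybpc1 was at 0, 1.87 and 0.154 FPKM in atrium-like parts and at 0.0614, 0.784 and 0.0775 FPKM in ventricle-like parts. Replicate 2 of both parts therefore held nearly all of the signal, from 252 and 102 counts, while the other HO libraries had 20 counts or fewer. The same 2 libraries had the highest summed skeletal muscle FPKM, 158 and 154 against 5.09 to 19.95 in the other HO libraries. They were also the 2 highest for summed neural (110 and 553), macrophage (889 and 694) and endothelial (81.0 and 57.6) FPKM. In E11.5H the skeletal muscle list was higher in atria, at 65.8 to 79.6, where Mybpc1 was at 0, than in ventricles, at 49.99 to 57.5. The part of none of these lists in the Mybpc1 values was tested. All 3 ventricle-like libraries lay below every embryonic ventricle, with a mean of 0.308 ± 0.413 FPKM (SD, n = 3) against 3.16 ± 1.82 FPKM.

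Mb was the most abundant of the 9 genes in both embryonic chambers. It was at 14.3, 12.3 and 12.5 FPKM in atria and at 83.8, 85.5 and 92.9 FPKM in ventricles of E11.5H, 6.72-fold higher in the ventricular mean. In HOs it was at 3.62, 8.23 and 11.2 FPKM in atrium-like parts and at 11.51, 14.6 and 30.6 FPKM in ventricle-like parts. The ventricle-like libraries lay above the atrium-like ones in FPKM, 2.46-fold in the mean, but atrium-like replicate 3 and ventricle-like replicate 1 changed places after TMM scaling, which sets libraries against the genes that most of them share. Every HO library stood below every embryonic ventricle. Every atrium-like library stood below every embryonic atrium in FPKM, but after TMM scaling atrium-like replicate 3, at 17.6 CPM, exceeded atria replicates 2 and 3, at 16.8 and 17.5 CPM. Atrium-like replicate 1 was lowest and ventricle-like replicate 3 highest of the HO libraries both for Mb and for the pan-cardiomyocyte list, while ventricle-like replicates 1 and 2 stood in opposite order. By summed FPKM of the list, 1347 and 1221, atrium-like replicates 2 and 3 did so too. The part of the cardiomyocyte content in the Mb values was not tested.

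Trib2 and Trim47 were of like level in the embryo and scattered widely in the organoids. Trib2 was at 8.75, 9.06 and 9.88 FPKM in atria and at 33.9, 32.0 and 29.1 FPKM in ventricles of E11.5H, 3.43-fold higher in the ventricular mean. In atrium-like parts it was at 0.966, 26.1 and 2.61 FPKM, and in ventricle-like parts at 16.1, 40.2 and 3.89 FPKM. The highest HO library was 41.7-fold above the lowest, and 1 library of each part reached 26.1 FPKM or more, so the parts overlapped.
Trim47 was at 10.3, 9.34 and 11.4 FPKM in atria and at 36.6, 32.8 and 31.5 FPKM in ventricles of E11.5H, 3.26-fold higher in the mean. Its HO values were 4.39, 47.5 and 7.21 FPKM in atrium-like and 46.7, 34.0 and 7.01 FPKM in ventricle-like parts. Atrium-like replicate 2 and ventricle-like replicates 1 and 2 were high for both Trib2 and Trim47, and the other 3 HO libraries were low for both. Those 3 low libraries had summed hepatocyte and visceral endoderm FPKM of 5823 to 14010, against 110 to 691 in the 3 high ones. Summed FPKM of 8 of the 12 marker lists split the HO libraries in this way, with gut epithelium also higher in the 3 low libraries and 6 lists higher in the 3 high ones. Among these 6, fibroblast and mesenchyme genes were at 2596 to 5200 against 658 to 1271, macrophage genes at 448 to 889 against 81.6 to 187, and neural genes at 104 to 553 against 1.64 to 12.3. The other 3 were the skeletal muscle, smooth muscle and endothelial lists. Neural genes put the 6 HO libraries in the same order as Trib2, and the part of none of these lists in the values of Trib2 and Trim47 was tested.

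Fam189a2 and Lrig1, membrane proteins that act on receptors, had the smallest embryonic chamber differences of the genes detected in both chambers. Fam189a2 was at 12.2, 10.5 and 10.95 FPKM in atria and at 26.9, 31.2 and 26.7 FPKM in ventricles of E11.5H, 2.52-fold higher in the mean. In HOs it was at 7.69, 10.96 and 10.6 FPKM in atrium-like and at 10.8, 7.67 and 22.1 FPKM in ventricle-like parts. Apart from ventricle-like replicate 3, the HO libraries lay within or below the range of embryonic atria, and all HO libraries lay below every embryonic ventricle.
Lrig1 was at 3.47, 2.999 and 3.51 FPKM in atria and at 6.84, 7.80 and 7.89 FPKM in ventricles of E11.5H, 2.26-fold higher in the mean. Its HO values were 1.88, 8.15 and 3.19 FPKM in atrium-like and 7.93, 4.34 and 5.04 FPKM in ventricle-like parts. A single atrium-like library, replicate 2, was the highest of all 6, so the parts overlapped.

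Snai3 was close to the limit of detection in embryonic atria. It had 0.249, 0.318 and 0.388 FPKM there, from 14 to 20 counts per library, and 3.54, 2.95 and 3.31 FPKM in ventricles, 10.2-fold more in the mean. In HOs it was at 1.21, 0.483 and 1.74 FPKM in atrium-like and at 2.85, 1.81 and 3.19 FPKM in ventricle-like parts. Of the ventricle-like libraries replicate 3 lay within the range of embryonic ventricles, every atrium-like library exceeded every embryonic atrium, and the parts were apart in FPKM but not after TMM scaling.
Cend1 was at 2.59, 2.28 and 2.07 FPKM in atria and at 6.35, 6.23 and 5.48 FPKM in ventricles of E11.5H, 2.60-fold higher in the mean. It was at 0.189, 1.52 and 1.86 FPKM in atrium-like and at 2.28, 8.01 and 2.56 FPKM in ventricle-like parts. The parts did not overlap, also after TMM scaling, and ventricle-like replicate 2 exceeded every embryonic ventricle. That library also had the highest summed neural FPKM, 553 against 1.64 to 110 in the other HO libraries, and atrium-like replicate 1 was lowest for both. The order between these ends differed, since atrium-like replicate 2, the next highest for the neural genes, was the next lowest for Cend1. The part of neural cells in the Cend1 values was not tested.

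Cystm1, on the plus strand at chr18:36348624-36402979 of GRCm38, was of moderate level in the embryo and had the highest mean of the 9 genes in both HO parts. It was at 4.77, 3.88 and 4.19 FPKM in atria and at 23.5, 23.0 and 19.2 FPKM in ventricles of E11.5H, 5.12-fold higher in the mean. In atrium-like parts it was at 223, 46.9 and 145 FPKM and in ventricle-like parts at 37.3, 28.5 and 152 FPKM. Every HO library stood above every embryonic library of either chamber. This separation is not read as particular to Cystm1, since edgeR called 20.6% of all genes higher in HOs than in E11.5H. The mean of the ventricle-like parts was 0.526 times that of the atrium-like parts, the reverse of the embryonic order. Libraries with the highest summed gut epithelium FPKM, 2757 to 4216 in atrium-like replicates 1 and 3 and ventricle-like replicate 3, were also the 3 highest for Cystm1. Summed FPKM of the hepatocyte and visceral endoderm genes put the 6 HO libraries in the same order as Cystm1, from 110 in ventricle-like replicate 2 to 14010 in atrium-like replicate 1. The part of either cell type in the Cystm1 values was not tested.

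**Figure D1:**
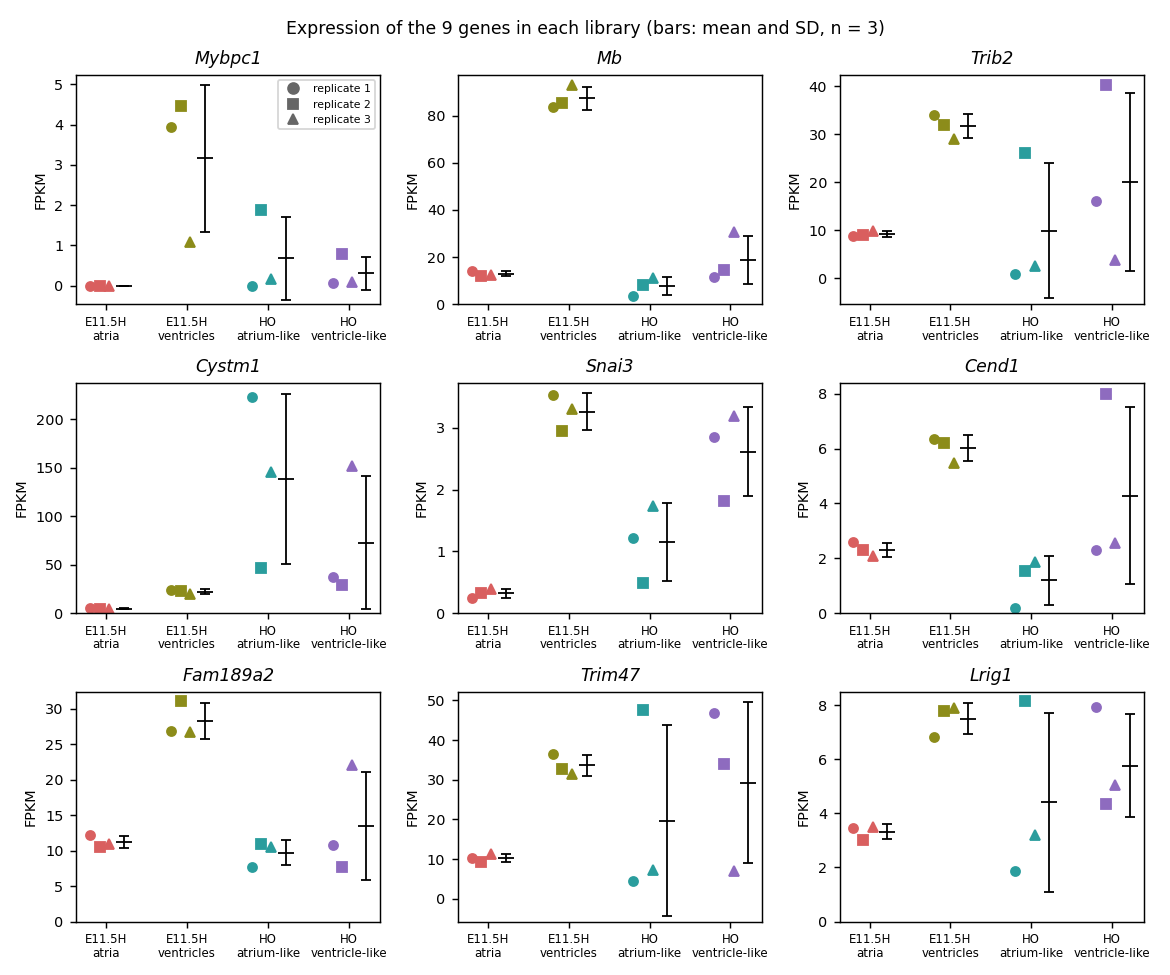
FPKM of each of the 9 genes (vertical axes, linear) in the 12 libraries, 3 per group, with the marker shape giving the replicate number and bars giving the mean and SD. For all 9 genes the 3 ventricles of E11.5H lie above the 3 atria, whereas the HO libraries scatter, as for Trib2 between 0.966 and 40.2 FPKM, and Cystm1 reaches 223 FPKM in an atrium-like library.

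Within a group, libraries of the organoids spread more widely than those of the embryo. In ventricles of E11.5H the highest library was 1.11-fold to 1.23-fold above the lowest for 8 genes and 4.13-fold for Mybpc1, and in atria the ratio for those 8 genes was 1.13 to 1.56. Within ventricle-like parts it ran from 1.76 for Snai3 to 10.3 for Trib2 and 12.8 for Mybpc1. Within atrium-like parts it ran from 1.42 for Fam189a2 to 27.0 for Trib2 among the 8 genes other than Mybpc1. The order of levels also changed. In ventricles of E11.5H Mb came first (87.4 ± 4.84 FPKM, SD, n = 3), then Trim47, Trib2 and Fam189a2 (33.6, 31.7 and 28.3 FPKM in the mean), of which neighbours in that order overlapped between libraries. Cystm1, Lrig1 and Cend1 followed without overlap of neighbours, at 21.9, 7.51 and 6.02 FPKM, and Snai3 and Mybpc1, at 3.26 and 3.16 FPKM, overlapped. In ventricle-like parts Cystm1 came first in the mean (72.7 ± 69.0 FPKM), then Trim47 (29.2 ± 20.3), Trib2 (20.1 ± 18.5), Mb (18.9 ± 10.2) and Fam189a2 (13.5 ± 7.58), and all of these neighbours overlapped. Trim47 exceeded Cystm1 in ventricle-like replicates 1 and 2 and in atrium-like replicate 2, and without ventricle-like replicate 3 the means of the ventricle-like parts were 40.4 FPKM for Trim47 and 32.9 FPKM for Cystm1. In atrium-like parts Cystm1 was again first (138 ± 88.1 FPKM) and Mybpc1 last (0.674 ± 1.04 FPKM).

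For the chamber difference of E11.5H, edgeR on the counts gave log2 fold changes of atria over ventricles from -3.42 for Snai3 to -1.24 for Lrig1 among the 8 genes with counts in atria, as values of the contrast by which they were chosen. Of 14536 genes fitted, 43 had a more negative value than Snai3, 64 than Mb, 104 than Cystm1, 218 than Trib2 and 454 than Lrig1. A call needed an adjusted p under 0.05 together with a log2 change above 1 in size, and 1.97% of all genes were called higher in ventricles. No call or p is given for the 9 genes here.

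The HO libraries address whether the ventricular genes keep their side in the dissected parts. Between atrium-like and ventricle-like parts 0 of the 9 genes were called by edgeR's quasi-likelihood test, and the call rate over all 15703 genes was 0%, with a lowest adjusted p of 0.750 and 889 genes at an unadjusted p under 0.05. DESeq2 called 59 genes and none of the 9. At an unadjusted p under 0.05 there were 0 of the 9 genes. The common coefficient of variation between replicates in edgeR was 0.677 in this fit, against 0.211 in the fit of the E11.5H chambers. An absent call is therefore not read as equal levels in the parts. Fold changes of the parts are atrium-like over ventricle-like on the log2 scale, so a negative value is a higher level in ventricle-like parts. The sign was negative for 7 genes and positive for Mybpc1 and Cystm1, with a median of -0.54 over the 9 genes against -0.03 over all genes. On the TMM scale the ventricle-like libraries were all above the atrium-like ones for 1 of the 9 genes, Cend1, and for 6.2% of all genes.

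By size, Cend1 had the most negative fold change, -1.73 (standard error 0.91, edgeR adjusted p = 0.750), and it ran from -2.28 to -0.93 with each library left out. Mb followed at -1.15 (standard error 0.53, edgeR adjusted p = 0.750) with a range of -1.55 to -0.62, and Trib2 at -1.001 (standard error 1.27, edgeR adjusted p = 0.846) with a range of -3.25, when atrium-like replicate 2 was left out, to -0.03, when ventricle-like replicate 2 was. Snai3 was at -0.97 (standard error 0.68, edgeR adjusted p = 0.751) with a range of -1.35 to -0.57. A single library set the sign for 4 genes. Trim47, at -0.54 (standard error 0.999), came to 0.04 without ventricle-like replicate 1, as did Lrig1, at -0.31 (standard error 0.51), to 0.02, and Fam189a2, at -0.31 (standard error 0.41), came to 0.24 without ventricle-like replicate 3. Mybpc1, at 1.14 (standard error 1.94), came to -1.78 without atrium-like replicate 2. Cystm1 was at 1.20 (standard error 0.88, edgeR adjusted p = 0.756) and stayed positive with each library left out, from 0.50 to 2.34.

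Scaling to cardiomyocyte genes moved these values. With size factors from the 18 pan-cardiomyocyte genes the median of all genes shifted to 1.55, and the signs of Mb (0.39), Snai3 (0.81), Fam189a2 (1.53), Trim47 (0.53) and Lrig1 (1.10) turned positive. Under this scaling Mb, Snai3, Trim47 and Lrig1 were below the median of all genes, with standard errors of 0.89 to 1.31. Fam189a2 was at about the median (standard error 0.91). Cystm1 was then called higher in atrium-like parts, at 3.61 (standard error 1.05, edgeR adjusted p = 0.0115), as 1 of 1499 genes.

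The second question is how far the HO level departs from the embryonic level, averaged over both chambers. The chamber difference itself cancels in this mean, but the ventricular values behind the choice of genes are part of it. The calls and p-values of the chosen genes are therefore not free of that choice. Taken by chamber, the log2 fold change of HOs was -0.61 against atria and -2.30 against ventricles for Mb, and 5.26 and 1.64 for Cystm1. Of the 8 genes with a fold change, edgeR called Mb lower and Cystm1 higher in HOs than in E11.5H, while 10.2% of 16494 genes were called lower and 20.6% higher. Mybpc1 has 0 counts in all atria, so no fold change is given for it. Mb fell by 1.45 in log2 units (standard error 0.29, edgeR adjusted p = 0.00206), with a range of -1.74 to -1.33 when each library was left out. With cardiomyocyte scaling its value was 1.55, where the median of all genes was 3.39 and 15353 of 15463 called genes were higher in HOs, against 3406 of 5084 with TMM. Cystm1 rose by 3.46 (standard error 0.52, edgeR adjusted p = 4.61e-04), between 2.87 and 3.67 with each library left out. In the same comparison 17 of 18 pan-cardiomyocyte genes were called lower, and 12 of 12 gut epithelium genes and 11 of 11 tested hepatocyte and visceral endoderm genes higher, and their part in the values of Mb and Cystm1 was not tested.

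For the other 6 genes the difference did not pass. Fam189a2 was at -0.59 (standard error 0.23, edgeR adjusted p = 0.0523) and Snai3 at 0.83 (standard error 0.37, edgeR adjusted p = 0.0876). Cend1 was at -0.73 (standard error 0.47), Trib2 at -0.32 (standard error 0.68), Trim47 at 0.34 (standard error 0.55) and, nearest to 0, Lrig1 at 0.02 (standard error 0.28), with edgeR adjusted p from 0.220 to 0.963. Atrium-like replicate 2 decided the call for Trib2 and Snai3. Without it Trib2 was at -1.48 (edgeR adjusted p = 0.0282) and Snai3 at 1.02 (edgeR adjusted p = 0.0169), and Trim47 turned to -0.46. These calls and p-values, too, are not free of the choice of the genes, whose embryonic ventricular values enter the mean. The median of the 8 genes was -0.15 against 0.13 for all genes.

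**Figure D2:**
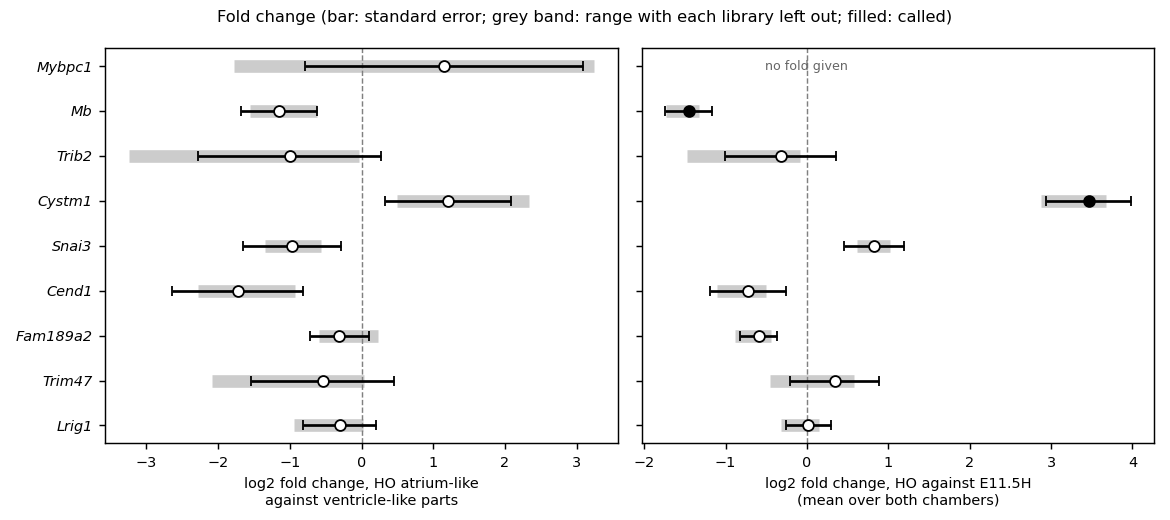
log2 fold changes from edgeR of the HO atrium-like over ventricle-like parts (left) and of HOs over E11.5H averaged over both chambers (right), with bars for the standard error, grey bands for the range with each library left out and filled points for calls. On the left no gene is called and 7 of 9 points lie below 0, and on the right Mb, at -1.45, and Cystm1, at 3.46, are the called genes. The calls on the right are not free of the choice of the genes.

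Set beside the matching chamber, the genes differed in how much was kept. The mean of ventricle-like parts was 0.869 times that of ventricles for Trim47, 0.802 for Snai3, 0.768 for Lrig1, 0.711 for Cend1 and 0.633 for Trib2. It was 0.478 times for Fam189a2, 0.216 for Mb and 0.0974 for Mybpc1, each with all 3 libraries below every ventricle, and 3.32 times for Cystm1, with all 3 above. Single libraries set several of these ratios. Without ventricle-like replicate 2 the ratio was 0.402 for Cend1, 0.315 for Trib2 and 0.0220 for Mybpc1, and without replicate 3 it was 1.502 for Cystm1. For Trim47 it was 0.610 without replicate 1 and 1.20 without replicate 3. In atrium-like parts the mean was 0.515 times that of atria for Cend1 and 0.591 for Mb, each with all libraries below in FPKM, and 3.60 times for Snai3 and 32.3 times for Cystm1, each with all libraries above. The libraries overlapped for Trib2 (1.07 times), Trim47 (1.91), Lrig1 (1.33) and Fam189a2 (0.867). Without atrium-like replicate 2 the ratio was 0.193 for Trib2, 0.562 for Trim47 and 0.762 for Lrig1. After TMM scaling atrium-like replicate 3 exceeded atria replicate 3 for Cend1, with 4.30 against 4.27 CPM. These ratios rest on the embryonic values that chose the genes, and no test is given. The share of all genes without overlap was not computed for the matching chambers, so the separations are not read as particular to these genes. Over all genes edgeR called 2859 of 15094 between ventricle-like parts and ventricles and 3821 of 15418 between atrium-like parts and atria.

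The values were also set against the cardiomyocyte genes of each library. These genes were lower in HOs, so that all genes of an HO library are raised by the same amount on this scale. Over all 16494 genes the median difference of HOs from E11.5H was then 3.15, and for 79.6% of them every HO library stood above every embryonic one. Of the 9 genes, Cystm1 (6.14) and Snai3 (3.67) lay above this median and the other 7 below it, from 1.51 for Mb to 2.99 for Lrig1. The difference between a gene's log2(FPKM + 0.1) and the mean of the 18 pan-cardiomyocyte genes was -4.13 to -4.11 for Mb in atria of E11.5H and ranged from -1.91 to -1.68 in their ventricles. For HOs it ranged from -1.48 to -1.001 in atrium-like parts and from -2.07 to -1.21 in ventricle-like parts, so that all 6 HO libraries stood above embryonic atria on this scale, 4 of them above every embryonic ventricle, 1 within their range and 1 below. For Cystm1 it ranged from -5.75 to -5.67 in atria, from -3.95 to -3.65 in ventricles, from 1.01 to 4.90 in atrium-like parts and from -0.38 to 0.62 in ventricle-like parts. For Snai3, Cend1, Fam189a2 and Lrig1, as for Cystm1, all 6 HO libraries stood above every embryonic library. Trib2 did so in 4 of 6 HO libraries and Trim47 in 5 of 6, and ventricle-like replicate 3 was the lowest for both, at -4.64 and -3.81. The mean of the list itself was between 7.75 and 8.33 for E11.5H, but between 2.89 and 6.64 for HOs.

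**Figure D3:**
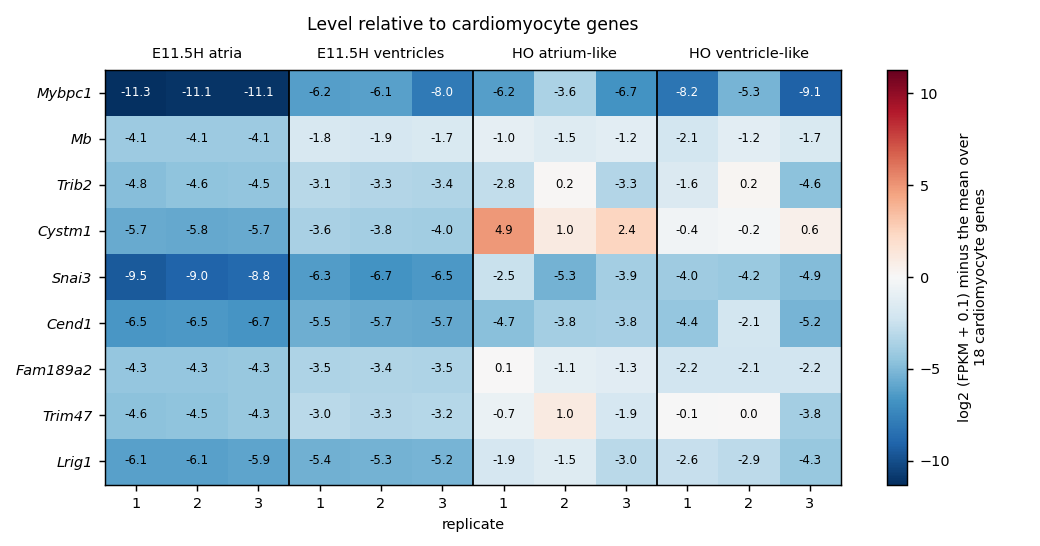
Heat map of log2(FPKM + 0.1) of each of the 9 genes minus the mean over 18 cardiomyocyte genes of the same library (columns, replicates 1 to 3 of 4 groups; color and number give the difference). Cystm1 stands at 4.90 in atrium-like replicate 1 and at -5.75 to -5.67 in atria of E11.5H, and Mb in HOs lies between -2.07 and -1.001.

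The relatives of the 9 genes were 30 genes fixed as members of their families, or as binding partners and target receptors of Fam189a2 and Lrig1, and 27 passed the count filter in HOs. None of the 27 was called between the HO parts (4 at an unadjusted p under 0.05, by DESeq2 0). Of 26 relatives tested in E11.5H, 5 were called between the chambers, against 4.9% of all genes. In the interaction of chamber and tissue 0 of 27 passed at an adjusted p under 0.05 (7 at an unadjusted p under 0.05, and 2 by DESeq2), against 0.152% of all genes. Between HOs and E11.5H 17 of 27 were called, 10 higher and 7 lower, against 30.8% of all genes in either direction. With cardiomyocyte scaling 22 were called higher and 1 lower, against 93.1% of all genes called higher. Of the 7 called lower, Mybphl, Snai2, Trim63, Erbb2 and Erbb4 then came to values of 0.17 to 2.33, below the median of 3.39 over all genes. Calls of relatives named hereafter are those with TMM scaling.

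In the myosin-binding protein family the cardiac gene Mybpc3 had 237 to 282 FPKM in atria, 417 to 481 FPKM in ventricles, 2.76 to 13.9 FPKM in atrium-like parts and 26.6 to 76.9 FPKM in ventricle-like parts. Its log2 change in HOs was -3.94 (standard error 0.40, edgeR adjusted p = 4.41e-05), also under cardiomyocyte scaling, of which it is a list gene, where it was at -1.04. Mybphl, a related gene of atrial muscle, was at 82.9 to 96.2 FPKM in atria and 20.5 to 26.7 FPKM in ventricles, called higher in atria (log2 1.90, standard error 0.11, edgeR adjusted p = 3.85e-06), and its HO values of 2.36 to 17.3 FPKM lay below every embryonic one (log2 fold change -2.91, edgeR adjusted p = 2.51e-04). Mybph stood at 7.30 and 7.57 FPKM in replicate 2 of the atrium-like and ventricle-like parts and at 0.322 FPKM or less in the other HO libraries, the same 2 libraries that carried Mybpc1. Among the globins outside red blood cells Cygb was higher in HOs by 3.87 (standard error 0.38, edgeR adjusted p = 3.85e-05), at 2.44 to 15.4 FPKM against 0.232 to 0.981 FPKM, and Ngb did not pass the filter.

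Both tribbles relatives of Trib2 were called higher in HOs, in contrast to Trib2 itself, although that contrast was not tested. Trib3, a stress-responsive member, rose by 4.37 in log2 units (standard error 0.34, edgeR adjusted p = 1.12e-05), from 1.04 to 4.85 FPKM in E11.5H to 20.8 to 67.8 FPKM in HOs, and Trib1 rose by 1.07 (standard error 0.21, edgeR adjusted p = 0.00182). In E11.5H Trib3 was also higher in ventricles, at -1.47 (edgeR adjusted p = 0.0189). Of the snail family Snai1 was higher by 1.91 (standard error 0.52, edgeR adjusted p = 0.0122) and Snai2 lower, at -1.14 (standard error 0.27, edgeR adjusted p = 0.00550), while Scrt1 and Scrt2 did not pass the filter. Fam189a1, Fam189b, Itch and Cxcr4 were not called by edgeR with TMM scaling between the HO parts, between HOs and E11.5H or between the embryonic chambers. With cardiomyocyte scaling these 4 genes were called higher in HOs, at 2.86 to 3.43, near the median of all genes.

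Of the 6 tripartite motif relatives of Trim47, Trim55 and Trim63, ubiquitin ligases of the sarcomere, were lower in HOs, at log2 fold changes of -3.83 and -2.08 (edgeR adjusted p = 4.13e-06 and 0.00119). Trim25 and Trim72 were higher, at 2.42 and 2.22 (edgeR adjusted p = 5.03e-06 and 0.00248). Trim54 was higher in atria of E11.5H, at 1.42 (edgeR adjusted p = 0.00116), and Trim65 was not called. Among the receptors that Lrig1 acts on, Erbb2 and Erbb4, the receptor pair of neuregulin signalling in heart muscle, were lower in HOs, at -1.38 and -2.82 (edgeR adjusted p = 1.00e-04 and 7.04e-04). Egfr, Erbb3 and Met were higher, at 1.87, 1.81 and 2.46 (edgeR adjusted p = 0.00119, 0.0334 and 0.00555). Ret was also called higher, at 0.668 to 8.44 FPKM in HOs against 0 to 0.117 FPKM in E11.5H, and no fold change is given because it was at 0 in all ventricles. Erbb3 was higher in ventricles and Egfr in atria of E11.5H, at -1.43 and 1.29 (edgeR adjusted p = 0.00661 and 0.0112). Lrig2 and Lrig3 were not called.

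For 8 of the 9 genes, all but Lrig1, the gene with the most similar profile is given, the one with the smallest root mean square difference of standardized log2 CPM over the 12 libraries, among 16485 other genes. It was Hip1r for Cystm1 (0.159), Myl2, the ventricular myosin light chain, for Mb (0.167), Kif26a for Cend1 (0.237) and Tm4sf1 for Trib2 (0.253). Etv4 for Trim47 (0.345), Hand1, a ventricular transcription factor, for Snai3 (0.374), Cspg4 for Mybpc1 (0.376) and Pdlim1 for Fam189a2 (0.401) were less close. The 12 libraries include those of E11.5H, whose chamber difference chose the 9 genes. That neighbours are higher in ventricles is therefore partly given by the choice. Myl2 had 4954 to 5037 FPKM in ventricles, 47.7 to 120 FPKM in atria, 3.25 to 31.3 FPKM in atrium-like parts and 45.8 to 254 FPKM in ventricle-like parts, and had the same lowest and highest HO libraries as Mb. Hand1 had 36.2 to 42.0 FPKM in ventricles and 0.172 to 0.789 FPKM in atria. Its highest HO library was atrium-like replicate 3, at 40.9 FPKM, where Snai3 was at 1.74 FPKM, below its level in every ventricle-like library. Hip1r was at 0.450 to 3.05 FPKM in E11.5H and at 2.91 to 19.6 FPKM in HOs. Within the 9 genes the closest pairs were Mb with Fam189a2 (0.391) and Trib2 with Trim47 (0.433), and Cystm1 was farthest from Trib2 (1.64).

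**Figure D4:**
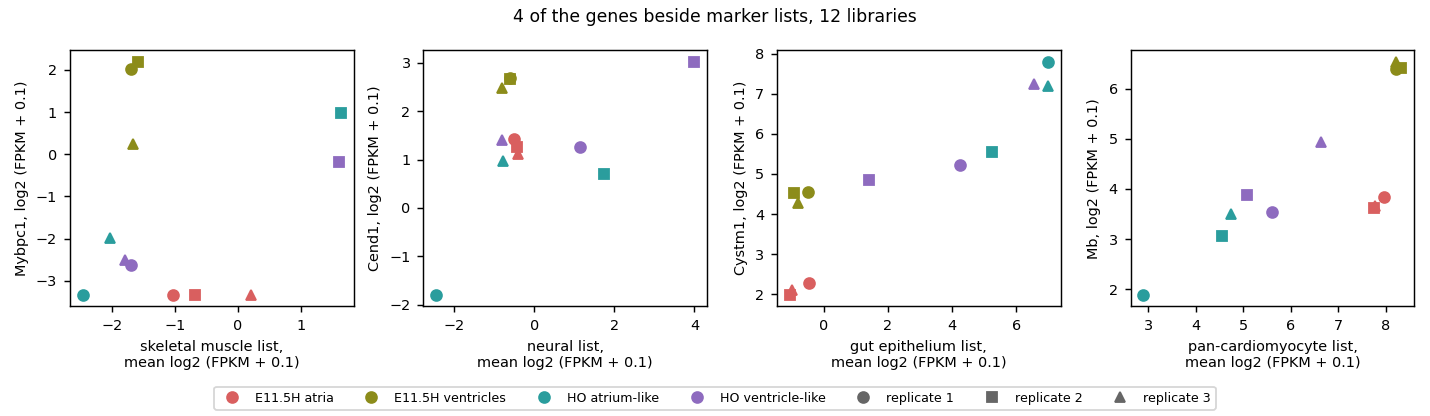
log2(FPKM + 0.1) of Mybpc1, Cend1, Cystm1 and Mb (vertical axes) against the mean of a marker list in the same library (horizontal axes, log2(FPKM + 0.1)), 12 libraries in 4 groups. The 2 HO libraries with a skeletal muscle mean of 1.61 and 1.63 are the 2 with the highest Mybpc1 among HOs. They are also the 2 highest HO libraries for the neural, macrophage and endothelial lists. In E11.5H the skeletal muscle mean is higher in atria, where Mybpc1 is at 0, than in ventricles. The HO library with the highest neural mean has the highest Cend1, and the 3 HO libraries with a gut epithelium mean of 6.55 to 6.98 have the highest Cystm1.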

How the data were processed

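RNA-seq libraries of 12 samples were made from total RNA of dissected parts by the Takara company. Reads were aligned to GRCm38/mm10 by the authors using STAR, and they deposited an expected count of fragments per gene, without normalization, and an FPKM value. Versions, counting tool, annotation release and strand are not given in the sources used here. Of the deposited counts 23.8% were not whole and were rounded before testing. FPKM as deposited carries no correction for composition.

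Counts were fitted by the quasi-likelihood method of edgeR 4.0.16 (R 4.3.3) after TMM scaling and filterByExpr at a minimum count of 10, with Benjamini-Hochberg adjusted p over all genes tested, with the 6 HO libraries alone for the HO parts, the 6 E11.5H libraries alone for the chambers, and all 12 for HO against E11.5H and the interaction. limma 3.58.1 and DESeq2 1.42.0 were alternatives, with pseudocounts of 1 and 0.1 on FPKM. Other alternatives were size factors of DESeq2 or of cardiomyocyte genes, no count filter, the replicate number as a block, each library left out, each chamber apart and hemoglobin genes left out of library sizes. The tests were also run on simulated data, and the outcome is not reported here. Plots were drawn with matplotlib 3.10.9. Gene positions were compared with the GENCODE and RefSeq annotations of GRCm38. The labels number 3 replicates per group, and the methods call the HO replicates biological. According to the methods both parts were dissected from these HO replicates, so an atrium-like and a ventricle-like library may come from the same HO. The sources used here do not tie the numbers of the parts, and the main fit took the parts as independent groups. Whether embryonic replicates came from separate litters is not given, so p-values measure the spread between these samples. A limit from 3 counts covers counting error only.

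The 9 genes, their relatives and the marker lists were chosen with earlier results of these data known. Ratios to the matching chamber with an HO library left out were added after the data were seen. Genes named are the 9, the relatives by family or as partners, the gene nearest in profile to each (that of Lrig1 is not reported here), and marker genes as part of their list.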

Additional observations from a re-analysis of the deposited data

How the results depend on the processing

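Depth limits Mybpc1, at 0 counts in embryonic atria and at most 20 in 4 HO libraries, Snai3 in embryonic atria (14 to 20 counts) and Cend1 in atrium-like replicate 1 (10 counts). Between the HO parts DESeq2 called 59 genes and the cardiomyocyte scaling 1518, of which 1499 were higher in atrium-like parts, and 3 relatives were called under that scaling, against 0 otherwise. Fam189a2 came to 0.023 with limma voom. Cardiomyocyte scaling gave 0.39 for Mb, 0.81 for Snai3, 1.53 for Fam189a2, 0.53 for Trim47 and 1.10 for Lrig1. With each library left out the value ran from -1.78 to 3.24 for Mybpc1, from -2.09 to 0.039 for Trim47, from -0.94 to 0.015 for Lrig1 and from -0.60 to 0.24 for Fam189a2, while the count of called genes stayed at 0.

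For HOs against E11.5H, 5084 genes were called, against 3193 with limma on log2(FPKM + 1), 2859 in the ventricular chambers alone and 15463 with cardiomyocyte scaling, where 15353 were higher. In the ventricular chambers 11 relatives were called, against 17. Trim47 came to -0.0091 with limma voom, -0.18 and -0.21 with limma on FPKM at pseudocounts of 1 and 0.1, and -0.29 in the ventricular chambers. Lrig1 came to -0.11 and -0.14 on FPKM, -0.47 in the ventricular chambers and -0.0068 without hemoglobin genes. Snai3 came to -0.41 in the ventricular and Trib2 to 0.13 in the atrial chambers. Cardiomyocyte scaling gave 1.55 for Mb, 2.91 for Trib2, 2.41 for Cend1 and 2.498 for Fam189a2. limma voom called Trib2 lower, at -1.21. With each library left out Trim47 ran from -0.46 to 0.57 and Lrig1 from -0.32 to 0.15, and Mb and Cystm1 were called each time. Calls of the chosen genes in this comparison, also with the replicate block below, are not free of that choice. Relatives called in the interaction numbered 2 with DESeq2, 3 with limma voom and 0 to 2 with each library left out. In E11.5H they numbered 5, against 9 with DESeq2, 3 and 8 with limma on FPKM at pseudocounts of 1 and 0.1, and 4 to 5 with each library left out. The cause of these differences was not tested.

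Same-numbered HO libraries correlated in their deviations from the group means at 0.03, 0.57 and 0.35, and same-numbered E11.5H libraries at 0.01 to 0.04. The numbers were not taken as pairs in the main fit, although the HO parts may share their HOs. Atrium-like replicate 1 correlated best with ventricle-like replicate 3. With the replicate number as a block 0 genes were called between the HO parts and 4782 between HOs and E11.5H, Lrig1 came to -0.000072 there, and the calls of Mb (-1.57) and Cystm1 (3.21) were kept.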
